A study of Mus musculus with 4 samples.

Results

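The windows described here are 1 kb stretches of the mouse autosomes whose CpG methylation was high in wild-type (WT) embryonic stem (ES) cells and stayed at 50% or more in Naa10 knockout (KO) cells, in which most such windows had far less. A window's level is its methylated calls as a percent of all its calls, summed over the cytosines with 10 or more calls in all 4 libraries. The rule asked for 3 or more such cytosines, a level of 80% or more in both WT libraries and of 50% or more in both KO libraries. It chose 932 windows, called kept windows below, out of 119319 measured windows, or 1.77% of the 52664 windows with 80% or more in both WT libraries. The other 51732 of these, called the other high-WT windows, serve as the comparison. The kept windows were chosen by their methylation levels in all 4 libraries, so those levels are a description and carry no test. Words such as kept and lost compare KO with WT, since no earlier sample of the cells was measured.

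The study read CpG methylation by reduced representation bisulfite sequencing in 2 WT and 2 Naa10-KO libraries of mouse ES cells. This assay cuts DNA with MspI, which favours CpG-rich sequence, and bisulfite converts unmethylated but not methylated cytosines. Cells of both genotypes were grown on feeders in N2B27 medium with LIF and Mek and Gsk3 inhibitors, then without feeders for 5 passages. The libraries held 68586396 to 79540412 calls, and nothing in the labels says that the 2 libraries of each genotype were separate cultures or clones, so a p-value here reflects spread that may be technical. Methylation data hold no expression, so neither the loss of Naa10 nor the cell type could be checked through marker genes.

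CpG methylation in mammals is copied after each round of DNA replication by the maintenance enzyme Dnmt1, which is brought to newly copied DNA by Uhrf1. The enzymes Dnmt3a and Dnmt3b add methylation anew. Mouse ES cells grown with inhibitors of Mek and Gsk3 are known to have low methylation, and certain retroviral repeats and imprinted control regions are known to keep methylation when the rest of the genome loses it. Naa10 is an enzyme that acetylates the N-termini of many proteins. No gene or repeat annotation and no genome sequence of mm9, the build of these coordinates, was used here, so the windows are given by position and without their letters or the genes they lie in.

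The kept windows were high in WT and intermediate in KO, and few were near their WT level in KO. In WT replicate 1 the median level was 95.6% (80.5% to 100%) and in WT replicate 2 it was 95.5% (80.2% to 100%). For KO replicate 1 the median was 64.8% (50.0% to 91.1%), and for KO replicate 2 it was 54.99% (50.0% to 89.0%). The other high-WT windows had medians of 90.9% in both WT libraries, and of 32.1% and 20.8% in KO. Of the 932 kept windows, 211 had 60% or more in both KO libraries, 31 had 70% or more and 2 had 80% or more. The KO and WT levels did not overlap, KO being lower, in 932 of 932 kept windows. Over all measured windows this was so in 89.0%, and over all high-WT windows in 100% (rounded). Nothing is read from it because the rule used these levels. The level in KO replicate 2 limited the choice: 4764 of the other high-WT windows had 50% or more in KO replicate 1, and 77 in KO replicate 2. Without KO replicate 2 the same rule would have chosen 6026 windows. KO replicate 2 lay above KO replicate 1 in 114 kept windows (12.2%) and in 5.68% of the other high-WT windows.

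**Figure D1:**
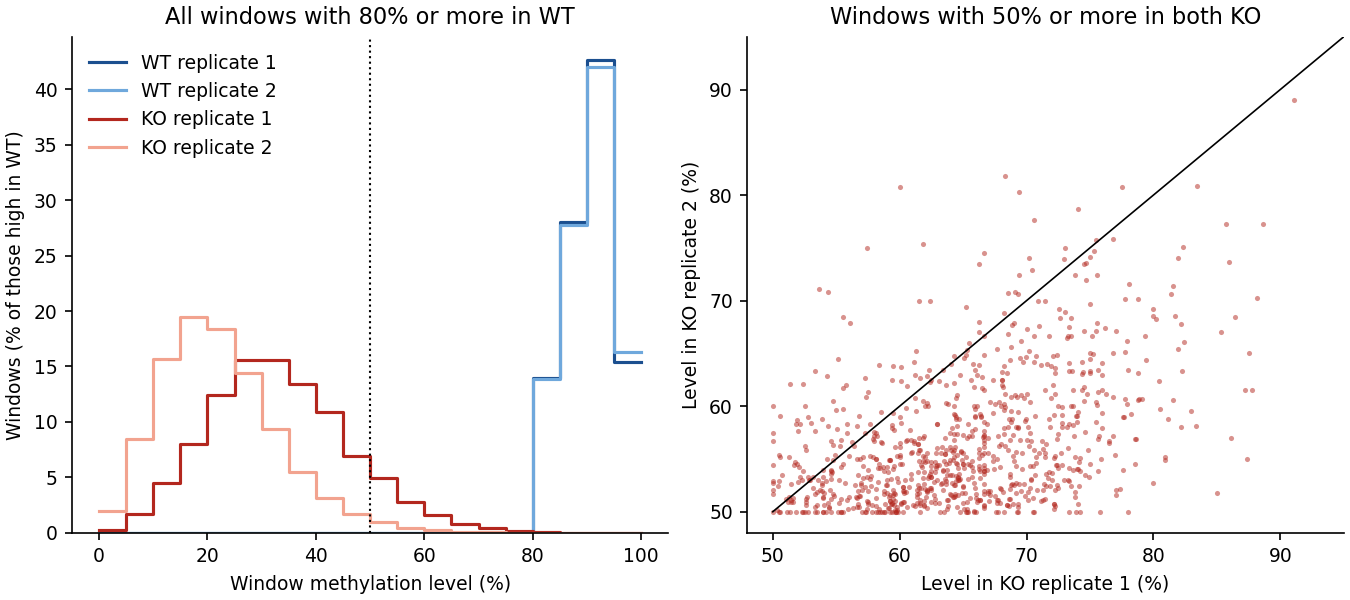
Left, the share of the 52664 windows with 80% or more in both WT libraries (y axis, %) in each 5-point class of methylation level (x axis, %), with 1 line per library and a dotted line at 50%. Right, each point is 1 of the 932 kept windows, by its level in KO replicate 1 (x axis, %) and in KO replicate 2 (y axis, %), with a line of equal levels; most points lie below the line and 114 lie above it.

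A window was called changed in methylation at a Benjamini-Hochberg adjusted p of 0.05 in edgeR's quasi-likelihood test, together with a minimum difference of 10 points. Of the 932 kept windows 928 were called lower in KO, where 76.5% of all 119319 windows were. All 51732 other high-WT windows were called lower too. None was called higher in edgeR, where 0.00251% of all windows were, and 0 kept windows were higher at an unadjusted p of 0.05. With a minimum of 25 points 858 were called lower (71.0% of all windows), and limma called 929 (76.4% of all windows). The rule used this contrast, so nothing is read from these counts. The median KO minus WT difference was -34.7 points in kept windows and -63.5 points in the other high-WT windows, an order that the choice fixes.

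The 10 kept windows with the highest lower value of the 2 KO libraries lay on chromosomes 1 to 7 and 10. The first was chr6:67544001-67545000, with 5 cytosines and 84 to 112 calls per library. The WT libraries had 97.9% and 98.8% there, and the KO libraries 91.1% and 89.0%. The groups did not overlap, but the KO mean was 90.04% ± 1.46 (SD, n = 2) against 98.3% ± 0.663 (SD, n = 2) in WT, a gap smaller than 10 points. The second was chr3:111382001-111383000, with 10 cytosines, at 97.3% and 98.2% in WT and 83.4% and 80.8% in KO. Another kept window, of lower level, began 7 kb from it. In chr2:23659001-23660000, with 3 cytosines, the levels were 94.4% and 91.9% in WT and 77.6% and 80.8% in KO, from 36 to 62 calls per library. The remaining 7 had KO means from 74.6% to 83.0% over 3 to 6 cytosines. These highest values thus came mostly from windows with few cytosines.

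Among the 12 kept windows with 20 or more cytosines, where each level rests on many more calls, the highest mean KO level was that of chr15:5663001-5664000. Its 21 cytosines gave 97.9% and 97.1% in WT and 77.9% and 60.2% in KO, from 444 to 530 calls per library. The window chr10:98800001-98801000 followed, with 20 cytosines, 96.6% and 94.6% in WT, and 73.9% and 59.1% in KO. In chr1:187907001-187908000, with 23 cytosines, the levels were 94.5% and 95.4% in WT and 72.8% and 59.2% in KO. At a coverage minimum of 20 its KO mean was 55.1%, against 66.0%. In all 3 the KO libraries differed from each other by more than the WT libraries did. The window chr5:23210001-23211000 was set apart by its depth, with 7314 to 8340 calls per library over 35 cytosines. It had 94.6% and 93.7% in WT and 66.6% and 53.6% in KO. With positions of the highest depth left out its KO mean was 44.5%, against 60.1%, so it would not have been kept.

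The threshold of 50% cut through a continuous range. The lower of the 2 KO levels was 50% to 55% in 497 kept windows, while 821 windows lay just outside at 45% to 50%. Of those with at least 20 cytosines, the one just inside was chr8:125951001-125952000, whose 51 cytosines had 93.7% and 94.0% in WT and 65.8% and 50.1% in KO. The 2 nearest just outside followed it on the chromosome, 1 and 2 kb farther along. The window starting at 125952001 had 95.2% and 96.7% in WT and 64.9% and 48.2% in KO, and that starting at 125953001 had 94.2% and 94.5% in WT and 55.4% and 47.4% in KO. Depth in these 3 windows was 91.9 to 130 calls per cytosine, far above the median of kept windows. With positions of the highest depth left out the KO mean of the kept one was 50.2%, against 58.0%. That mean does not show that both KO libraries stayed at 50% or more, as the rule asks. About 16 kb to either side, the windows starting at 125935001 and 125967001 had under 1% in all 4 libraries. This stretch of chromosome 8 therefore holds more high KO levels than its single kept window shows.

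Levels in libraries that did not take part in the choice were read next. Windows with 80% or more in WT replicate 2 and 50% or more in KO replicate 2 numbered 1014. In KO replicate 1 their median was 64.2% (quartiles 57.6% and 69.9%), and 92.3% of them had 50% or more there. The 54890 windows with 80% or more in WT replicate 2 that were not chosen had a median of 31.5% in KO replicate 1, and 8.78% of them had 50% or more. The reverse choice, on WT replicate 1 and KO replicate 1, gave 5748 windows with a median of 39.0% in KO replicate 2, and 16.2% of them had 50% or more there. Among the 50150 windows not chosen this way the median in KO replicate 2 was 19.3%, and 0.154% had 50% or more. Windows high in 1 KO library were therefore mostly higher than the rest in the other KO library as well, in either direction of the choice. They were also higher in the WT library not used, with medians of 95.5% and 94.3% in the 2 choices. The windows not chosen had 90.5% and 90.1% there, and the part of the WT level was not tested.

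Cytosines that the rule left out, because they had fewer than 10 calls in some library, gave a second reading. There were 4926 of them in 746 of the kept windows. Pooled, they gave 90.5% and 89.5% for the WT libraries, and 52.6% and 40.5% for KO replicates 1 and 2. The KO mean was 46.6% ± 8.55 (SD, n = 2), below both WT libraries. A two-sided exact permutation test of KO against WT gave p = 0.333, the smallest that 2 against 2 libraries allow. It gave the same p in the other high-WT windows, so nothing about kept windows is read from it. In the other high-WT windows such cytosines had 85.9% and 85.6% in WT and 31.6% and 21% in KO. In 340 kept windows with 10 or more such calls in each library, the median level fell from 64.7% at the cytosines used to 54.3% at those not used in KO replicate 1, and from 54.9% to 40.0% in KO replicate 2. Of these 340 windows, 88 (25.9%) had 50% or more in both KO libraries by the unused cytosines alone, against 1.66% of 16881 other high-WT windows. Outside the chosen cytosines the levels were thus lower than the rule's own values, and still above those of the other windows in both KO libraries. Unused cytosines can lie on the same reads as used ones, so the readings are not fully separate.

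**Figure D2:**
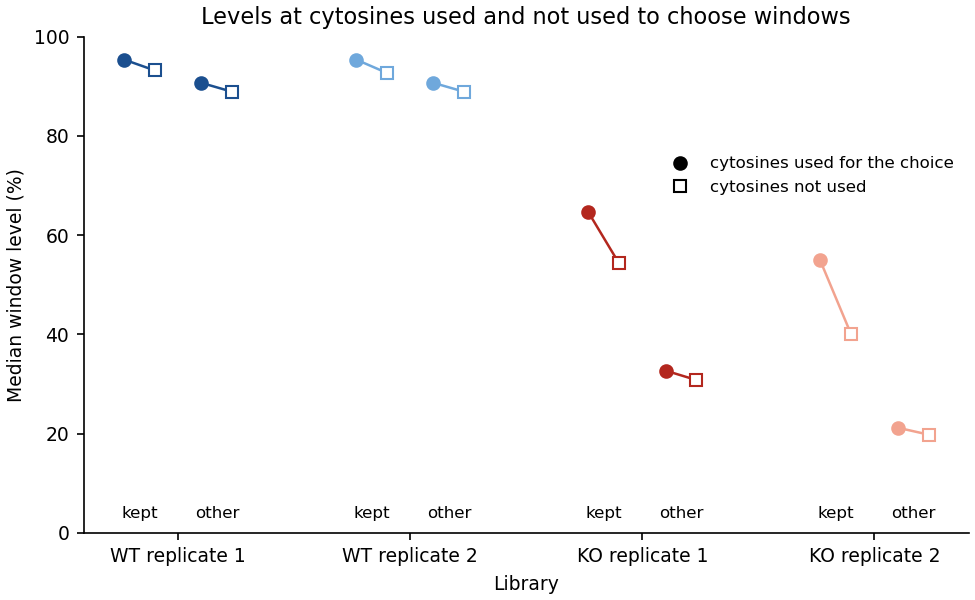
Median window level (y axis, %) in each library (x axis) for windows with 10 or more calls per library at unused cytosines: 340 kept windows and 16881 other high-WT windows. Filled circles are the cytosines used for the choice and open squares those not used; in KO the kept windows drop to 54.3% and 40.0% at unused cytosines, and the other windows change little.

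The single cytosines of kept windows made up the levels that chose them, so their values are a description. Of the 5680 cytosines in kept windows, 3610 (63.6%) had 50% or more in both KO libraries. In KO replicate 1 1.53% were below 20%, and in KO replicate 2 3.66%. The lowest cytosine of a kept window had a median level of 42.9% and 33.3% in KO, against 90.5% and 90% in WT. In 99 kept windows (10.6%) every cytosine had 50% or more in both KO libraries. Within a window the levels of single cytosines varied more in KO, with a median SD of 15.0 and 16.4 points against 3.84 and 4.16 in WT. The other high-WT windows also varied more in KO, with 13.8 and 11.1 points against 6.01 and 6.35 in WT. Both strands of a CpG were covered at 1527 CpGs in 570 kept windows. In KO the mean level was 67.2% and 58.4% on the strand of the lower position, and 67.2% and 58.2% on the opposite strand. The strands of the same CpG differed by a median of 8.91 and 9.34 points in KO, and by 8.39 and 7.02 points in the other high-WT windows. The part of counting error in these values was not tested.

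Kept windows were most frequent where the WT level was highest. Among windows with a mean WT level of 80% to 85%, 0.159% were kept (10 of 6276). The share was 0.743% at 90% to 93%, 7.30% at 95% to 97% and 14.9% at 97% or more (176 of 1179, exact 95% binomial interval 12.9% to 17.1%). The rule used the WT level, so this is a description. It bears on every other property, because those can differ with the WT level too. The intervals given here and below cover counting error only and treat windows as separate, which neighbours are not.

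By cytosine number, kept windows were the smaller ones. Their median was 5 cytosines (quartiles 3 and 7) against 6 (quartiles 4 and 8) in the other high-WT windows, and 26.2% of them had the minimum of 3 against 16.2%. The share kept was 2.06% of windows with 3 to 4 cytosines and 1.07% of those with 20 or more (12 of 1123, interval 0.553% to 1.86%). Within classes of WT level the intervals overlapped. At 80% to 90%, 0.306% of windows with 3 to 4 cytosines and 0.271% of those with 12 or more were kept, and at 90% to 95% 1.59% and 1.16%. At 95% or more it was 7.80% (interval 6.88% to 8.81%) and 9.69% (interval 7.01% to 13.0%). The medians were equal for kept and other windows when windows of 500 bp were used (5 cytosines) or 100 or more calls were asked for in each library (7 cytosines).

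Depth per cytosine was lower in kept windows in each of the 4 libraries. The median was 26.0 and 22.1 calls in the WT libraries and 22.0 in each KO library. In the other high-WT windows it was 29.0 and 25 calls in the WT libraries, and 26.4 and 26.6 in KO. Kept windows thus had 89.7% and 88.3% of the depth of the others in WT, and 83.2% and 82.8% in KO. The mean over the 4 libraries was 86.0%. Over 4 classes of equal size by depth, 2.39% of windows were kept in the lowest (314 of 13144) and 165 of 13168 in the highest. Split at the median depth, the shares below and above it were 0.307% and 0.227% at a WT level of 80% to 90%, 1.74% and 0.953% at 90% to 95%, and 8.96% and 8.38% at 95% or more. Fewer calls make a level less exact, and the part of this in the choice of windows was not tested. Among windows above the 50% mark in KO replicate 1, the median in KO replicate 2 was 38.2% in the lowest class of depth and 40.0% in the highest.

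Depth itself was compared between genotypes, as the rule used it only as a minimum. By edgeR's quasi-likelihood test on total calls per window, with Benjamini-Hochberg adjustment and a threshold of 0.05, 3 kept windows had fewer calls in KO and 1 had more. Of all 119319 windows 0.0687% had fewer calls and 0.0327% had more. The kept window with the largest difference was chr6:142098001-142099000, with 755 and 653 calls in the WT libraries but 234 and 114 in KO, or a depth 3.87-fold lower in KO (adjusted p = 0.00032 in edgeR). There the methylation was 94.97% and 94.95% in the WT libraries, 50.0% in KO replicate 1 and 54.4% in KO replicate 2. In chr4:127028001-127029000 calls were 182 and 144 in WT and 264 and 364 in KO, 2.01-fold more in KO (adjusted p = 0.0398 in edgeR). The other 2 were chr19:17508001-17509000 and chr7:27120001-27121000, at 2.67-fold and 1.92-fold fewer calls (adjusted p = 0.0405 and 0.0398 in edgeR). The median log2 ratio of KO to WT calls was -0.04 in kept windows and 0.04 in the other high-WT windows. With 1 library left out it was -0.0458 to -0.0264 in kept windows and 0.0343 to 0.0467 in the others. The number of kept windows called changed with the library left out. It is not given, because 1 genotype then has 1 library.

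Kept windows occurred on all 19 autosomes at uneven rates. Chromosome 3 had the highest share of high-WT windows kept, 3.28% (83 of 2532, interval 2.62% to 4.05%). Chromosome 19 had the lowest, 0.821% (12 of 1461, interval 0.425% to 1.43%). Chromosome 1 had 2.31% and chromosome 5 had 1.19%. Chromosomes 8 and 14 took a smaller part of the calls in KO, with KO-to-WT ratios of 0.858 and 0.955, and had 1.36% and 2.43% kept.

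The first 20 Mb of the chromosomes, the end next to the centromere in the mouse, had a higher share of high-WT windows kept than the rest. There 185 of 5143 high-WT windows were kept, 3.6% (interval 3.10% to 4.14%), against 747 of 47521 or 1.57% (interval 1.46% to 1.69%) farther along. The share in the first 20 Mb was higher on 17 of the 19 chromosomes; chromosomes 2 and 8 were the exceptions. On chromosome 1 it was 8.60% (16 of 186) against 1.95%, and on chromosome 9 7.69% (16 of 208) against 1.37%. The difference was small on chromosome 13, at 2.06% (5 of 243) against 2.01%, and on chromosome 17, at 1.83% (7 of 382) against 1.67%. The last 10 Mb had 1.5%. In the first 20 Mb 15.2% of high-WT windows had a WT level of 95% or more, against 11.5% in the rest. The difference was also present within classes of WT level, with 14.7% against 7.88% at 95% or more, 52 of 2433 against 276 of 22099 at 90% to 95% and 0.933% against 0.200% at 80% to 90%. High-WT windows there that were not kept averaged 34.4% and 23.0% in KO, against 32.6% and 21.6% in the rest. Depth was slightly lower in the first 20 Mb, with a median of 25 and 25.6 calls per cytosine in KO against 26.5 and 26.6, and its part was not tested. Without KO replicate 2 the share kept was 16.7% in the first 20 Mb and 10.4% in the rest.

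Kept windows lay far from unmethylated sequence. The median distance to the nearest window with under 20% in both WT libraries was 77.0 kb (quartiles 29.8 and 206 kb) for kept windows and 41.0 kb (quartiles 14 and 114 kb) for the others. The share kept was 0.644% within 1 to 5 kb of such a window, 1.55% at 20 to 50 kb and 3.05% at 200 kb or more (244 of 8001, interval 2.68% to 3.45%). The WT level moved with this distance. Among windows that were not kept, it averaged 88.8% and 88.9% at 1 to 5 kb and 91.3% and 91.4% at 200 kb or more. Their KO levels were 32.7% and 22.1% at the nearest and 32.2% and 20.7% at the farthest. Measured windows were also sparser around kept windows, with a median of 4 others within 50 kb against 7.

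**Figure D3:**
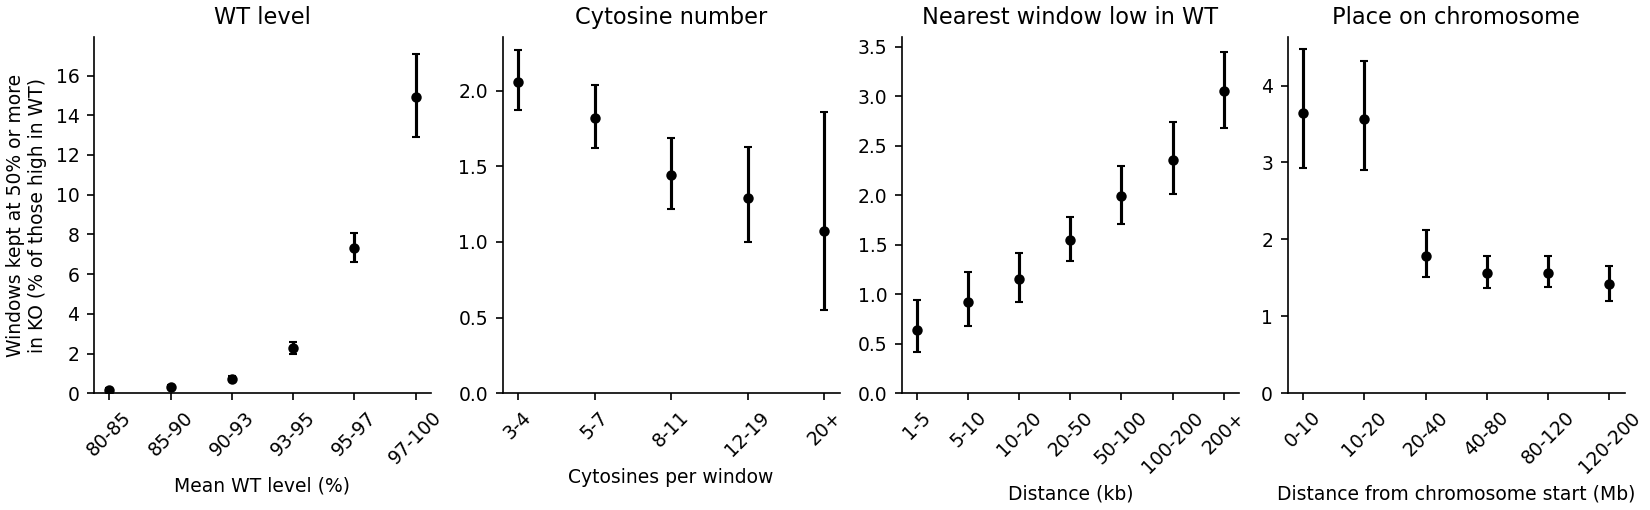
Share of high-WT windows that were kept (y axis, %) by mean WT level, by the number of cytosines in the window, by distance to the nearest window under 20% in WT, and by distance from the chromosome start, with exact 95% binomial intervals. The share rises from 0.159% to 14.9% with the WT level, falls with cytosine number, rises from 0.644% to 3.05% with distance from unmethylated windows and is highest in the first 20 Mb.

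Most kept windows stood alone, but a kept window was more often near another than the other high-WT windows were. Another kept window lay within 10 kb of 60 kept windows (6.44%, between window starts) and of 766 other high-WT windows (1.48%). It was directly adjacent to 27 kept windows (2.9%) and to 181 other high-WT windows (0.35%). Adjacent windows can be 1 stretch cut at a window edge. Of 492 kept windows with a high-WT neighbour within 10 kb, the nearest one was kept in 39 (7.93%), against 1.65% of 28357 other windows. At 1000 kb the shares with a kept window in range were 57.4% and 55.5%, close to each other. Without KO replicate 2 the share within 10 kb was 16.0%, against 8.98% of the others.

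Windows beside a kept window had higher KO levels even where they were not kept themselves. The 181 high-WT windows directly adjacent averaged 42.4% ± 0.931 and 30.8% ± 0.799 in the KO libraries (SE over windows). The mean fell to 37.8% and 25.7% at 3 to 5 kb and to 34.5% and 23.0% at 21 to 50 kb, and was 32.2% and 21.3% beyond 1000 kb. WT levels were nearly level over these distances, at 91.4% and 91.8% adjacent and 90.3% and 90.4% beyond 1000 kb. Both KO libraries showed this decline. Within 10 kb the KO mean was 32.5% ± 8.21 (SD, n = 2) and the WT mean 91.2% ± 0.171 (SD, n = 2), with p = 0.333 in the two-sided exact permutation test, the smallest possible. That test compared genotypes in windows chosen to be high in WT and below 50% in at least 1 KO library. It gave the same p beyond 10 kb, so nothing on distance is read from it.

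**Figure D4:**
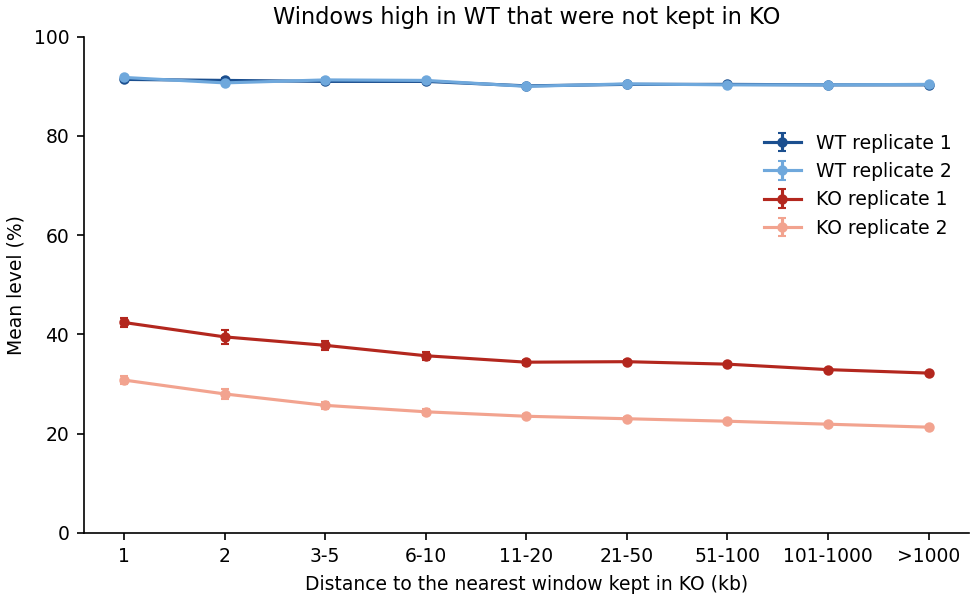
Mean level (y axis, %) of high-WT windows that were not kept, by distance to the nearest kept window (x axis, kb), with 1 line per library and bars of 1 SE over windows. Both KO lines decline with distance, from 42.4% and 30.8% at 1 kb to 32.2% and 21.3% beyond 1000 kb, while the WT lines are nearly flat.

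Chained at gaps of 10 kb or less, the 60 kept windows with a near neighbour formed 28 clusters: 26 of 2 windows, 1 of 3 and 1 of 5. The cluster of 5 filled chr12:89331001-89336000 without a gap, with 39 cytosines at a mean depth of 18.8 calls. At a coverage minimum of 20 none of its 5 windows was measured, so the cluster rests on cytosines of low depth. The window means in this cluster averaged 96.9% and 95.8% in WT and 74.3% and 60.5% in KO. Its highest window in KO, that starting at 89334001, had 99.1% and 94.6% in WT and 88.2% and 70.2% in KO. The 2 nearest windows measured outside it started 23 and 24 kb from its start. The nearer had 76.5% and 75.7% in WT and 41.0% and 25.4% in KO, and the farther 95.9% and 95.8% in WT and 62.4% and 46.6% in KO. The cluster of 3 lay in chr2:76576001-76589000, with 5 high-WT windows in all. Its highest kept window, that starting at 76588001, had 73.5% and 68.4% in KO (KO mean 61.8% at a coverage minimum of 5, against 71.0%). The 2 high-WT windows between the first and the second kept window had 38.1% and 15.2%, and 33.0% and 15.6%. Of the clusters of 2, the highest mean KO level was in chr9:3946001-3949000, at 77.5% and 63.6% in KO against 92.0% and 94.2% in WT over 30 cytosines.

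**Figure D5:**
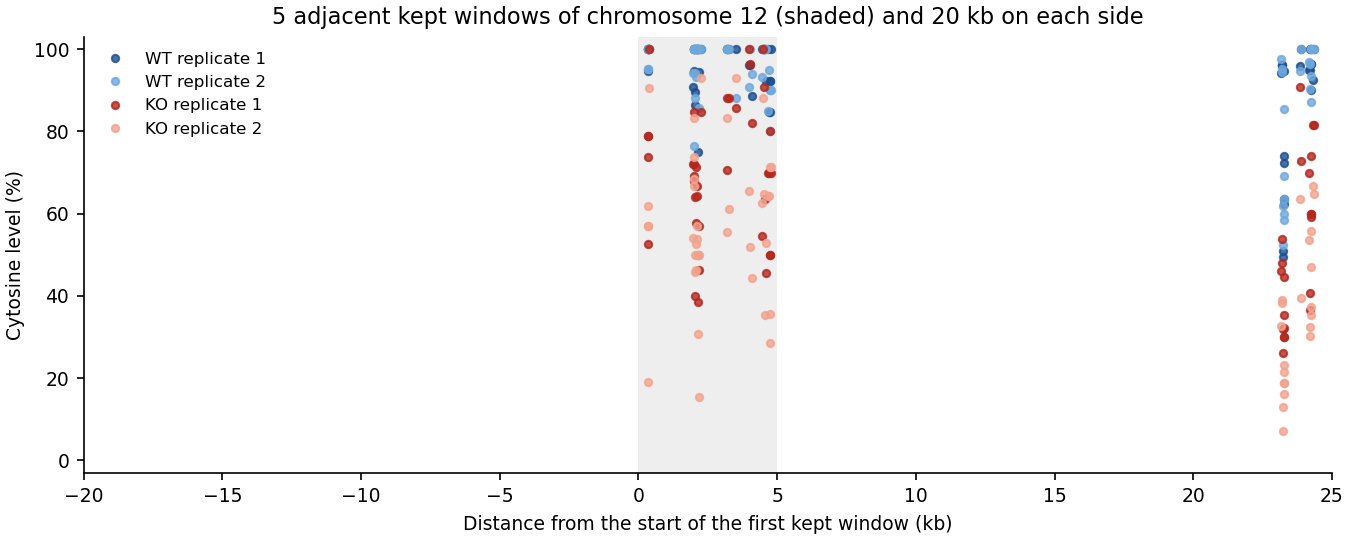
Level of each cytosine with 10 or more calls in all libraries (y axis, %) by distance from the start of the cluster of 5 kept windows on chromosome 12 (x axis, kb); the cluster is shaded and points are coloured by library. No measured window lies within the 20 kb to its left; in the cluster the WT points lie mostly above the KO points.

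Copies of a sequence have their CpGs at the same spacing, so spacing was compared as a mark that needs no sequence. Each run of 6 gaps of at most 200 bp between listed CpGs was matched exactly to places more than 2 kb away. A run touched 500 kept windows, and in 54 of these (10.8%, interval 8.22% to 13.9%) it was found elsewhere too. Among the other high-WT windows this was so in 1095 of 28849 (3.80%, interval 3.58% to 4.02%). With runs of 5 gaps the shares were 18.5% and 8.23%, and with 8 gaps 5.48% and 1.62%. The share of high-WT windows kept was 1.58% where a run had 1 place, 4.70% where it had 2 or more, and 7.86% where it had 20 or more (11 of 140, interval 3.99% to 13.6%). At a WT level of 95% or more it was 8.67% with 1 place and 16.2% with 2 or more. Not-kept windows whose run had 20 or more places averaged 44.6% and 28.8% in KO, against 33.3% and 22.1% for 1 place. Windows with 2 or more places had a lower depth, with a median of 21.5 and 22.1 calls per cytosine in KO against 26.5 in both libraries for 1 place. Whether depth or the placing of reads among copies had a part was not tested.

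The kept windows whose run was found in most places were chr1:85219001-85220000 and chr9:79749001-79750000, which shared the same 6 gaps of 14, 12, 34, 18, 2 and 2 bp. This run was listed at 144 places. The chromosome 1 window had 97.3% and 97.1% in WT and 54.3% and 62.9% in KO, from 70 to 147 calls per library. The chromosome 9 window had 95.6% and 94.7% in WT and 74.0% and 54.1% in KO. At a coverage minimum of 5 its KO mean was 45.5%, against 64.0%, so it would not have been kept. The run of the next, the chromosome 6 window with fewer calls in KO described above, had gaps of 9, 9, 7, 7, 11 and 15 bp. The shorter run of 14, 12, 34 and 18 bp, chosen after the values were seen, was listed at 300 places on all 19 autosomes. It touched 16 high-WT windows, of which 3 were kept, the 2 just named and chr3:93726001-93727000, and the remaining 13 averaged 47.7% in KO replicate 1 and 25.7% in KO replicate 2. A shared spacing thus did not by itself mark a window as kept.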

How the data were processed

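CpG methylation was measured in 4 libraries (50 ng of genomic DNA each, final library fragments of 150 to 500 bp), grouped by the sample titles. Per the labels' protocols, MspI digestion, methylated adaptors and bisulfite conversion were used. The authors deposited, for each cytosine, a methylation percent and whole-number counts of methylated and unmethylated calls, which are not normalised. Per the submitters' processing notes, Bismark 0.10.1, Trim Galore and mm9 were used; settings for trimming, filtering and duplicates were not given in the sources used here. Molecular identifiers are not mentioned, so intervals cover counting error only.

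Levels were summed from the deposited counts over cytosines with 10 or more calls in all libraries (1874113 on chromosomes 1 to 19) in 1 kb windows, 1-based. Windows were fitted with edgeR 4.0.16 (R 4.3.3), for methylation on both kinds of call, testing the interaction of call type and genotype, and for depth on total calls with TMM scaling. Depth calls also had a minimum fold, which removed none. The methylation test covered the 118948 windows with both kinds of call; the rest counted as not called. On simulated data for 119319 windows, the methylation test called 35 of 100 windows changed by 15 points, 87 of 100 changed by 30 points and 0 unchanged. The depth test called 88 of 100 windows lowered 2-fold, 33 of 100 raised 1.5-fold and 8 unchanged. In each simulation 119119 windows were unchanged, and methylation had the same small extra spread (correlation of 0.002) in all libraries. The real data differ in both respects, so these rates may not hold for them. Library means were compared by exact permutation (scipy 1.17.1).

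The 2 WT libraries gave a chi-square of 1.10 for each degree of freedom (308956 cytosines) and the KO libraries 2.36 (362322 cytosines), so each library counted as 1 sample. Named windows are the 10 with the highest lower KO value, those of 20 or more cytosines with the highest KO mean, the 3 clusters with most windows, those nearest the threshold, those called in depth and the 3 with the most widely found spacing; for some of these sets only the first are printed. The windows, lists and tests were chosen with earlier results of these data known. Alternatives were other coverage minimums, window sizes and offsets, cytosine and call minimums, thresholds, limma 3.58.1, DESeq2 1.42.0, other scalings, left-out chromosomes, positions or libraries, and the replicate number as a block.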

Additional observations from a re-analysis of the deposited data

How the results depend on the processing

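Kept windows numbered 438 at a coverage minimum of 20, 142 with 10 or more cytosines, 458 with 100 or more calls per library, 3342 at a KO threshold of 40% and 211 at 60%; leaving out 1 library gave 958 to 6026. The share with another kept window within 10 kb was 9.73% at a coverage minimum of 5, 11.9% in 500 bp windows, 4.43% in 2 kb windows, 10.7% with windows shifted by 500 bp, 2.82% with 10 or more cytosines, 12.1% at a KO threshold of 40% and 0.948% at 60%, and 6.71% to 16.0% with 1 library left out. Windows, neighbours and chances of a neighbour all change in number with these settings. The share in other high-WT windows was lower in each. At a KO threshold of 60% and with 10 or more cytosines, very few of the 211 and 142 kept windows had such a neighbour. The median cytosine number was 4.5 at a coverage minimum of 20, 12 with 10 or more cytosines (12 in other windows too), 4 at a KO threshold of 60% and 7 with 100 or more calls. Depth relative to other windows was 92.7% at a coverage minimum of 20, 91.5% and 81.2% at KO thresholds of 40% and 60%, 91.9% with 100 or more calls, and 84.2% to 90% with 1 library left out. The KO level within 10 kb was 40.7% with 10 or more cytosines. The share kept in the first 20 Mb was 10.7% and 1.13% at KO thresholds of 40% and 60%, 6.24% at a WT threshold of 90% and 3.34% to 16.7% with 1 library left out, and exceeded that of the rest in each alternative tried, all chosen for it after seeing the data. Shared spacing was found in 18.5% and 5.48% of kept windows with 5 and 8 gaps.

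Windows called higher in methylation, 3 in all, were 162 with no minimum difference, 0 at 25 points (edgeR; 196 at an unadjusted p below 0.05) and 1 to 13 with 1 library left out; none was a kept window. In depth 82 windows were called lower and 39 higher. The number lower was 47 without TMM, 160 in DESeq2, 37 with 100 or more calls and 21 without chromosomes 8 and 14, and 153 to 300 with 1 library left out. The number higher was 16 with 100 or more calls, 12 without chromosomes 8 and 14, and 98 to 137 with 1 library left out. Kept windows called lower were 1 and called higher 0 in edgeR without chromosomes 8 and 14, against 0.0196% and 0.0112% of all windows. At an unadjusted p below 0.05 in edgeR they were 60 and 24, against 4369 and 4998 of all 107355 windows. None of the kept windows called with all chromosomes fitted lay on chromosome 8 or 14. Those called on chromosomes 4, 7 and 19 had adjusted p of 0.0398 to 0.0405 in edgeR, against a threshold of 0.05. With 1 library left out the numbers of kept windows called changed, and the causes were not tested. With the replicate number as a block, depth calls were 489 lower and 267 higher, 16 and 2 of them kept windows, and methylation calls moved little; deviations of same-numbered libraries correlated at 0.000917 (methylation) and 0.0058 (depth), so the numbers do not show a pairing. Among the windows named, KO means below 50%, which end the choice, are given beside the windows on chromosomes 5 and 9. Fewer than 3 cytosines also end the choice, as at a coverage minimum of 20 for all 5 windows of the chromosome 12 cluster. Of the 10 windows with the highest lower KO value, only that on chromosome 10 and chr7:34814001-34815000 were measured there. The 3 windows with the most widely found spacing were not, nor were those starting at 76584001 on chromosome 2 and 3946001 on chromosome 9. A KO mean above 50%, as on chromosome 8, does not show that both KO libraries stayed at 50% or more. A level from 100 calls has a wide counting error, which limits statements on single small windows.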

Other observations

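Chromosome X was outside the rule. Applied there, the same thresholds chose 42 of 1115 high-WT windows, 3.77% (exact 95% binomial interval 2.73% to 5.06%), against 1.77% on the autosomes and 3.28% on chromosome 3, the highest autosome. The 42 windows had median levels of 95.5% and 96.0% in WT and 68.1% and 56.7% in KO. All high-WT windows of chromosome X had medians of 92.6% and 92.4% in WT and 34.9% and 22.6% in KO. The difference between X and the autosomes was not tested.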
